A study of Mus spretus with 8 samples.

Results

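Aminoacyl-tRNA synthetases join each amino acid to its own transfer RNA, the step that supplies charged tRNA to the ribosome. Their genes were taken from the probe annotation by symbol: a capital letter followed by "ars", with or without a closing 1, 2 or l, together with Eprs, Farsa, Farsb, Aimp1 and Aimp2. This gave 37 genes of the 22471 genes with a symbol, and every matched symbol was a synthetase or was named in the rule. Of the 37, 17 encode cytosolic enzymes, 16 encode mitochondrial enzymes, and 2 (Gars for glycine and Kars for lysine) each encode the enzyme of both compartments. The other 2, Aimp1 and Aimp2, are scaffold proteins of the cytosolic multi-synthetase complex and charge no tRNA themselves.

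The livers came from 8 male mice, 7 weeks old, of SPRET/EiJ, an inbred strain of the species Mus spretus. The DDE group, 4 mice, ate a Harlan diet carrying p,p'-DDE, a long-lived breakdown product of the insecticide DDT, dissolved in corn oil at 450 mg/kg for 30 days. The control group, also 4 mice, ate that diet with corn oil and no p,p'-DDE. RNA from each liver was labelled with the dye Cy3 and read on 1 single-colour Agilent array, and each value below is a log2 signal of a gene's brightest probe.

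Nuclear genes encode both sets of enzymes, and the mitochondrial enzymes are imported to charge the tRNAs made inside the organelle. When charged tRNA runs short or the endoplasmic reticulum is stressed, kinases phosphorylate the initiation factor eIF2, and translation of the transcription factor ATF4 rises. ATF4 is known to switch on many cytosolic synthetase genes together with genes of amino acid synthesis and transport, whereas mitochondrial synthetase genes are mostly not counted among its targets. Hepatocytes use cytosolic charging heavily because they make most plasma proteins. The comparison asks whether these genes differed after the DDE diet, and whether the cytosolic and mitochondrial sets differed in the same way.

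All 8 hepatocyte markers had means above background, and none of the 8 passed the limma test described next or reached an unadjusted p under 0.05. Of 40 markers of other liver and blood cells, 31 had means above background and 0 passed the limma test, with 5 higher and 3 lower by the unadjusted p (16.0% of all genes in either direction). By cell type the means differed in direction: all 5 cholangiocyte markers (median -0.38) and 6 of 8 Kupffer cell markers (median -0.26) were lower after DDE, and 6 of 8 stellate cell markers were higher (median 0.34). Also higher were 5 of 7 endothelial markers (median 0.23) and all 3 red cell markers (median 0.175). For lymphocytes and neutrophils 4 of 9 markers were higher and 5 lower. Only 2 of the 5 cholangiocyte markers had means above background. One of the 5, Krt19, read 12.12 on control 1 against 7.69 to 8.80 on the other controls. Of the stellate markers 3 were higher without overlap, and Dcn, at -0.96, was lower without overlap. Over all genes 8.48% were higher and 4.06% lower without overlap. The mean level of these 40 markers was 9.24 to 9.64 in the controls and 9.25 to 9.30 in the DDE livers, and their part in the results was not tested. Background was set on each array from probes for olfactory and vomeronasal receptors, at 7.55 to 7.81. Stained patches covered between 0.521% of the spots (DDE 1) and 9.50% (control 4), and 16 of the 368 member values lay on them. Signals of genes above background were lower on control 4 than on the other arrays, with a median deviation of -0.35 from each gene's mean over the 8 arrays, against -0.19 to 0.08 on the other 7. Of the 37 genes, control 4 gave the lowest control value for 22, and the part of this array in the differences was not tested except where values without it are given.

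Few synthetase genes differed between the groups beyond the spread of the livers. In a limma fit of all 42957 probes, with p-values adjusted by the Benjamini-Hochberg method and a threshold of 0.05, 0 of the 37 genes rose and 1 fell. Over all genes at their brightest probe, 3.35% passed (2.58% higher and 0.774% lower), and over the 12570 genes with a mean above background 5.89% passed. No member differed by more than 1 on the log2 scale (the largest was 1.82-fold), and 28 of the 37 differed by less than 0.5. Before adjustment, p was under 0.05 for 4 genes that were higher and 2 that were lower. Over all genes this share was 16.0% (11.4% higher and 4.57% lower), and over genes above background 25.5%. The groups did not overlap for 6 of the 37 genes, 4 higher and 2 lower. Over all genes the groups did not overlap for 12.5% (8.48% higher and 4.06% lower), and over genes above background for 18.8%. The members' shares lie near those of all genes. As RNA was taken from whole liver, fewer cells of a type and less RNA per cell cannot be told apart.

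**Figure D1:**
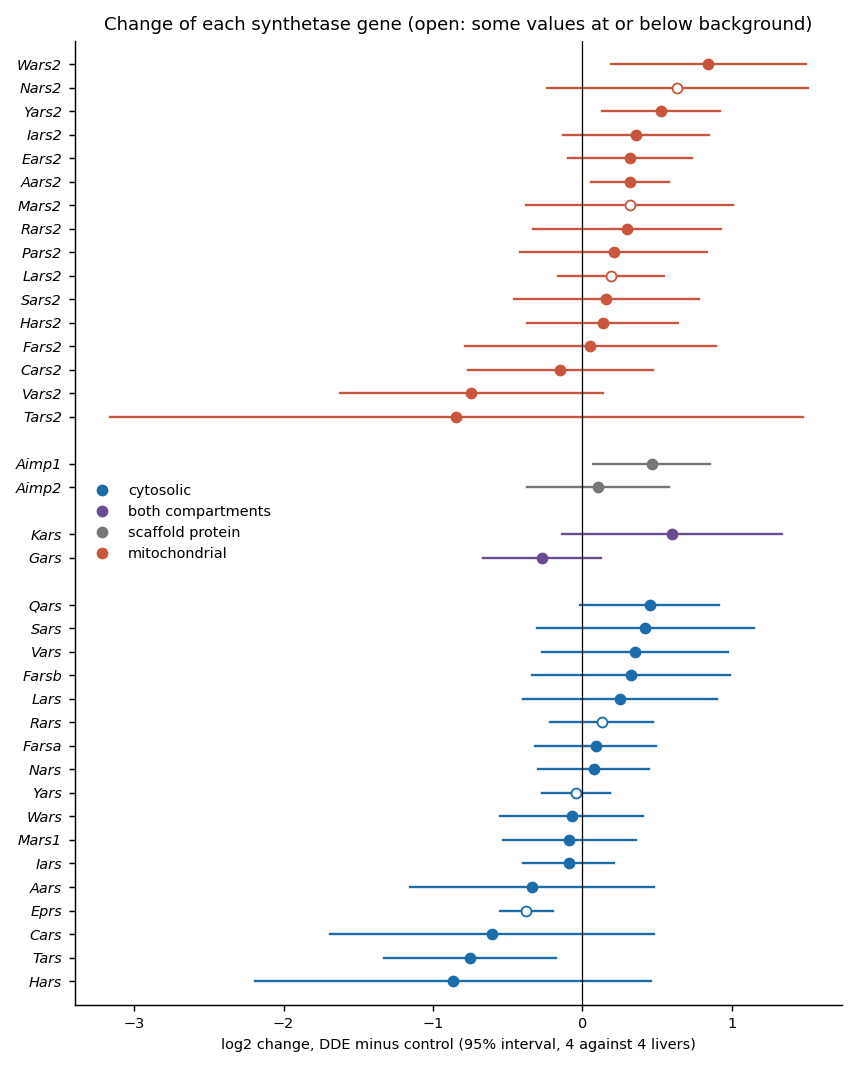
Log2 change of each of the 37 genes after DDE (x axis, DDE minus control, points) with its 95% interval from the limma fit (lines), grouped by compartment; open points have some of their 8 values at or below background. Changes run from -0.87 (Hars) to 0.84 (Wars2), and 13 of the 16 mitochondrial genes lie above 0 against 8 of the 17 cytosolic genes.

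The precision of these values was limited by 4 livers per group. The 95% interval of a member's change reached a median of 0.58 to each side, a factor of 1.49, and from 0.18 (Eprs) to 2.32 (Tars2). For 26 of the 37 genes the whole interval lay between -1 and 1, so a change of 2-fold or more was outside it. For the other 11 genes it was not. The 26 include Eprs, Rars, Yars and Lars2, which had values at or below background. For them the interval limits the signal and not the fold of the RNA.

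Among the cytosolic enzymes, 0 of 17 rose and 1 fell, where 2.58% of all genes were higher and 0.774% lower. The median log2 change was -0.04, beside 0.02 for all genes and 0.07 for genes above background. The changes ran from -0.87 to 0.45, with 8 above 0 and 9 below. The gene that fell was Eprs, whose protein joins both glutamate and proline to their tRNAs. Its control values were 7.62, 7.54, 7.70 and 7.78, and its DDE values were 7.30, 7.38, 7.21 and 7.25. The groups did not overlap, but only the value of control 4 was above the background of its array, and none of the DDE values was. The change was -0.38 ± 0.075 (SE; 95% interval -0.55 to -0.20; limma adjusted p = 0.0479), and it gives no fold for Eprs because the signal was at background. The call was lost when any 1 of the 8 arrays was left out (adjusted p from 0.0733 to 0.122). The adjusted p of Eprs was under 0.05 in 6 of the 19 alternatives in which it was tested. In 1 of these 6 a fold change of at least 1.5 was also asked for, and Eprs did not reach it.

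Tars, which charges tRNA with threonine, was the other cytosolic gene whose groups did not overlap. Its signals were 11.26, 11.48, 10.80 and 10.81 in controls and 10.69, 10.29, 9.78 and 10.57 after DDE, all above background. The lowest control lay 0.11 above the highest DDE liver. The difference of -0.76 (95% interval -1.33 to -0.18) did not pass (limma adjusted p = 0.184), and DDE 4 was on a stained spot.

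Hars, the histidine enzyme, had the lowest difference of all 37 genes, with a control SD of 1.08. Its controls lay at 8.83, 10.59, 9.01 and 10.94 and its DDE livers at 8.87, 9.35, 8.17 and 9.51. Control 2 and control 4 were high, the former on a stained spot, while the other controls lay within the DDE range (difference -0.87, 95% interval -2.19 to 0.46, limma adjusted p = 0.57).

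Aars, the alanine enzyme, had 1 liver apart from the rest. Its control values were 11.86, 12.42, 12.03 and 12.02, and 3 DDE livers were close to them at 12.15, 12.13 and 12.03. DDE 4 was at 10.67, on a spot that was not stained. The difference was -0.34 (limma adjusted p = 0.645), and 0.02 without DDE 4. The dimmer probe of Aars, at background in most livers, differed by -0.09.

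Cars, the cysteine enzyme, also varied widely among controls, with 11.04, 10.95, 10.23 and 9.26, against 10.02, 9.90, 8.92 and 10.22 after DDE (difference -0.61, limma adjusted p = 0.626). DDE 4 of Cars was on a stained spot, and the difference was -0.76 without it and -1.13 without control 4 and DDE 4. Sars, the serine enzyme, had 11.93, 12.31, 11.39 and 11.17 in controls and 12.08, 12.34, 12.52 and 11.54 after DDE (difference 0.42, adjusted p = 0.616). Control 2 of Sars was on a stained spot, and without it the difference was 0.62 (limma adjusted p = 0.34). The groups overlapped for both genes. Wars, the tryptophan enzyme, which is also known as an interferon-induced gene, had 11.00 ± 0.42 in controls and 10.93 ± 0.084 after DDE (SD, n = 4), a difference of -0.07. Its second probe differed by 0.04. Nars (asparagine), Yars (tyrosine) and Farsa, the alpha subunit of the phenylalanine enzyme, differed by 0.08, -0.04 and 0.09 (limma adjusted p from 0.813 to 0.84). Control 1 of Nars was on a stained spot, and the difference was 0.18 without it. Yars was near background, with 3 of its 8 values above it. Farsb, the beta subunit, differed by 0.33 (95% interval -0.33 to 0.99), with DDE 4 on a stained spot. Without that value Farsb differed by 0.14, and without control 4 and DDE 4 by 0.0033. Vars, the valine enzyme, differed by 0.35 (-0.27 to 0.98). The dimmer probe of Farsa had groups that did not overlap (8.60 ± 0.19 and 9.04 ± 0.22, difference 0.45, adjusted p = 0.166), while those of its brightest probe overlapped.

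The cytosolic multi-synthetase complex holds Eprs, Iars, Lars, Mars1, Qars, Rars and Kars among the genes measured, held together by Aimp1, Aimp2 and Eef1e1. Of these 10 genes, 0 rose and 1 (Eprs) fell (2.58% and 0.774% of all genes), and the median log2 change was 0.19. Aimp1 had controls of 11.58, 11.14, 11.67 and 11.04 and DDE values of 11.80, 11.76, 12.04 and 11.68. Every DDE liver lay above every control, by as little as 0.01 (difference 0.46, 95% interval 0.07 to 0.85, limma adjusted p = 0.236). Eef1e1 had 8.36, 8.13, 8.49 and 8.45 in controls and 8.73, 8.84, 9.17 and 8.48 after DDE, with DDE 4 inside the control range (difference 0.45, adjusted p = 0.223). For Aimp2 the difference was 0.10 (95% interval -0.37 to 0.58).

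Qars, the glutamine enzyme, had 11.50, 11.14, 11.18 and 10.60 in controls and 11.56, 11.62, 11.75 and 11.29 after DDE. With stained values kept, its difference of 0.45 was the highest of the 17 cytosolic enzymes. However, DDE 4 lay below control 1 and the test did not pass (limma adjusted p = 0.352). Kars gave 10.75, 10.45, 9.82 and 9.87 in controls and 10.76, 10.13, 11.27 and 11.12 after DDE, again overlapping (difference 0.60, adjusted p = 0.464). Gars, which like Kars serves both compartments, was at 12.62 ± 0.33 in controls and 12.35 ± 0.13 after DDE (SD, n = 4; difference -0.27, adjusted p = 0.551). Within the complex, Iars (isoleucine), Mars1 (methionine), Rars (arginine) and Lars (leucine) differed by -0.09, -0.09, 0.13 and 0.25, and Rars had 5 of its 8 values above background.

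Most mitochondrial enzymes had higher means after DDE, but none passed the test. Of the 16, 0 rose and 0 fell in limma, with 3 higher and 0 lower by the unadjusted p (11.4% and 4.57% of all genes). The median log2 change was 0.25, with 13 above 0 and 3 below (81.2% above 0, against 52.9% of all genes and 54.9% of genes above background). The 3 genes higher by the unadjusted p, Wars2, Yars2 and Aars2, were also those whose groups did not overlap. Over all genes 8.48% were higher without overlap. Over genes above background, 25.5% had an unadjusted p under 0.05 and 18.8% did not overlap, in either direction.

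Yars2 charges mitochondrial tRNA with tyrosine. Its control values were 9.38, 9.11, 9.18 and 8.62, and its DDE values were 9.69, 9.40, 9.59 and 9.72. The gap between the highest control and the lowest DDE liver was 0.02 (difference 0.53, 95% interval 0.13 to 0.92, limma adjusted p = 0.174). DDE 4, the highest value, was on a stained spot, and without it the difference was 0.49 (limma adjusted p = 0.247).

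Aars2, the mitochondrial alanine enzyme, had 9.31, 9.30, 9.12 and 8.89 in controls and 9.51, 9.50, 9.32 and 9.56 after DDE. Here too the groups were separated by 0.01, and control 4 was the lowest (difference 0.32, 95% interval 0.05 to 0.58, limma adjusted p = 0.226). No value of Aars2 was on a stained spot.

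Wars2, for tryptophan, had the highest difference of the set. Its signals were 8.21, 8.26, 8.06 and 7.75 in controls and 8.62, 8.62, 8.67 and 9.74 after DDE, and the highest of these, DDE 4, was on a stained spot. The difference of 0.84 (95% interval 0.19 to 1.49, limma adjusted p = 0.189) became 0.57 without that value (adjusted p = 0.0681). Leaving out both control 4 and DDE 4 gave 0.46 and an adjusted p of 0.0404, the lowest among the alternatives, which reached up to 0.995. The other probe of Wars2, with 1 of its 8 values above background, differed by -0.83 with control 4 at 11.08 on a stained spot against 7.27 to 7.54 on the other arrays.

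**Figure D2:**
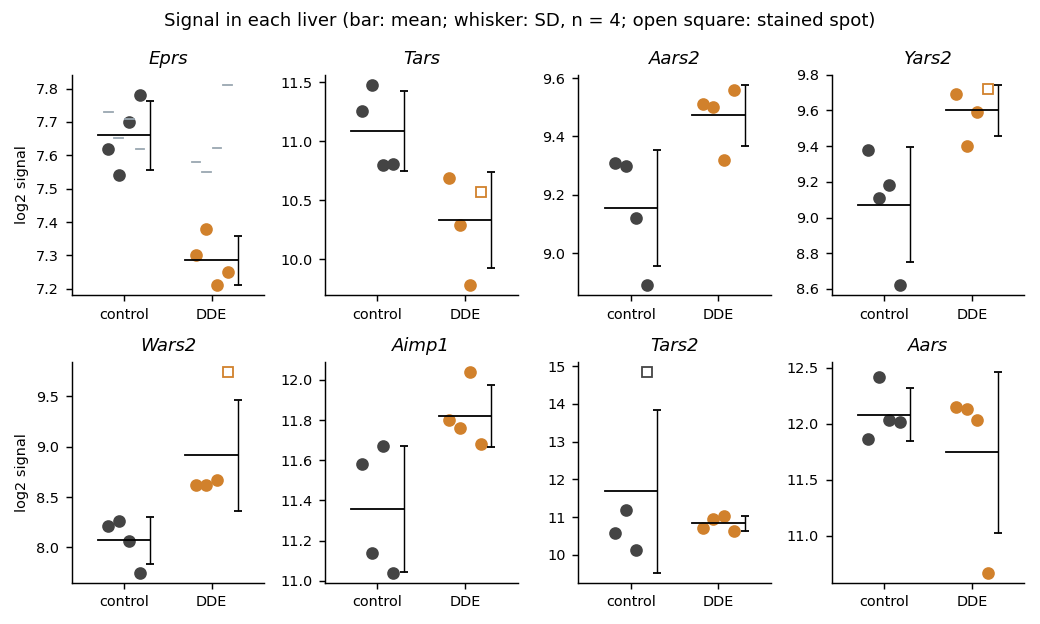
Log2 signal in each of the 8 livers for 8 genes (points; horizontal bars are group means and whiskers the SD, n = 4; open squares are values on stained spots; grey dashes beside Eprs mark the background of each array). Each panel has its own scale; the groups do not overlap for Eprs, Tars, Aars2, Yars2, Wars2 and Aimp1, while control 4 stands apart for Tars2 and DDE 4 for Aars.

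The 3 mitochondrial genes with lower means after DDE each had control 4 on a stained spot. Tars2, the threonine enzyme, read 10.58, 11.18, 10.12 and 14.85 in controls and 10.72, 10.96, 11.04 and 10.63 after DDE. Its difference was -0.85 with all values (95% interval -3.16 to 1.47, limma adjusted p = 0.679) and 0.21 without the stained value of control 4 (adjusted p = 0.734). Its second probe differed by 0.11.

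Vars2, the valine enzyme, had 8.40, 8.16, 8.78 and 9.97 in controls and 8.25, 8.08, 8.07 and 7.94 after DDE. Control 4 was the highest and stained, and without it the difference went from -0.74 to -0.36 (limma adjusted p = 0.439 and 0.314). The second probe of Vars2, with 5 of its 8 values above background, differed by 0.33. Cars2 differed by -0.15 (95% interval -0.77 to 0.47), and by 0.22 at its second probe, so that the direction of Cars2 depends on the probe.

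Nars2 and Mars2 were above background only in DDE livers. Nars2, for asparagine, was at 7.23, 7.28, 7.16 and 7.18 in controls, all below background, and DDE 2 and DDE 4 were above it at 8.72 and 8.34 while the other 2 were at 7.10 and 7.23. Mars2, for methionine, was above background only in DDE 4 at 8.59, on a stained spot, and differed by -0.00 without that value against 0.32 with it. DDE 4 was on a stained spot for Nars2 too, and the difference of 0.64 became 0.47 without it (limma adjusted p = 0.517 and 0.632).

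For the other mitochondrial enzymes the groups overlapped. Iars2 differed by 0.36, Ears2 (glutamate) by 0.32, Rars2 by 0.30, Pars2 (proline) by 0.21, Lars2 by 0.19, Sars2 by 0.16, Hars2 by 0.14 and Fars2 by 0.05, with limma adjusted p between 0.491 and 0.951. Hars2 had 3 DDE livers between 9.58 and 9.65 and DDE 4 at 8.96. For Iars2 the second probe gave 12.17 on DDE 4, a stained spot, where the other DDE livers had 7.32 to 7.81. Over the 9 mitochondrial genes with no stained value, all 9 changes were above 0, with a median of 0.21 and a range of 0.05 to 0.36.

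Set against each other by liver, the medians of the cytosolic enzymes overlapped between the groups and those of the mitochondrial enzymes did not. For each array the median was taken over the genes of a set, each as its deviation from its own mean over the 8 arrays. For the 17 cytosolic genes it was 0.16, 0.08, -0.08 and -0.41 in the controls and 0.02, 0.06, -0.03 and -0.07 in the DDE livers. Control 4 was the lowest and control 1 the highest, with the DDE livers between them. For the 16 mitochondrial genes it was -0.00, -0.11, -0.16 and -0.37 in controls and 0.16, 0.10, 0.04 and 0.07 after DDE. These medians did not overlap, and over the 9 genes with no stained value they did (-0.42 to 0.06 in controls and -0.10 to 0.25 after DDE). No test was made of these medians, as the genes were chosen as sets.

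**Figure D3:**
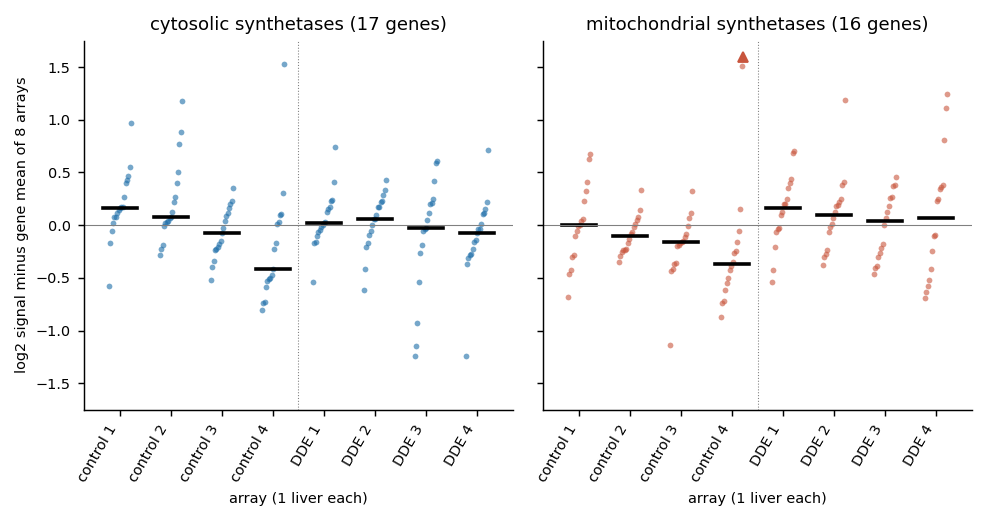
Deviation of each gene's log2 signal from its mean over the 8 arrays (y axis) on each array (x axis) for the 17 cytosolic and 16 mitochondrial genes; points are genes, black bars are medians over the set, and the triangle is Tars2 on control 4, beyond the axis. Control 4 has the lowest median in both panels, at -0.41 and -0.37.

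Over the 20751 probes with means above background, the per-array median deviation averaged 0.12 higher on the DDE arrays than on the control arrays, and 0.055 higher without control 4. DDE 4, at -0.18, lay below controls 1, 2 and 3, so the arrays of the groups overlapped. In both groups the deviation fell with the replicate number. It was -0.019, -0.066, -0.12 and -0.34 in controls 1 to 4 and 0.0825, 0.05, 0.00125 and -0.18 in DDE 1 to 4. Each DDE array thus lay above the control of the same number. Centring each array on the probes above background, an alternative chosen after seeing the data, took the shift of 0.12 out of every difference. The mitochondrial median then became 0.13, with 12 of 16 above 0, and the cytosolic median became -0.17, with 6 of 17 above 0. Without control 4 the mitochondrial median was 0.19 and the cytosolic median -0.04. The mitochondrial median stayed above the cytosolic one under each of the alternatives run, but several of these could not change the order. An intensity trend, a replicate block and 1 probe per gene in the fit leave every log2 change as it was. Centring moves both medians by the same amount. Whether the sets differ was not tested.

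Cytosolic and mitochondrial enzymes for the same amino acid gave 17 pairs over 16 amino acids. In 11 pairs the mitochondrial change was above the cytosolic one, and in 6 it was below. The cytosolic gene was below 0 and the mitochondrial gene above 0 in 8 pairs, which were those for alanine, glutamate, histidine, isoleucine, methionine, proline, tryptophan and tyrosine. Eprs stands in both the glutamate and the proline pair, and Fars2 in both phenylalanine pairs. Both genes were above 0 in 6 pairs and both below 0 in 2, those for threonine and cysteine. The valine pair had the opposite order, with 0.35 for Vars and -0.74 for Vars2. Some of these signs depend on a stained value or on the probe. Without stained values Tars2 differed by 0.21 and Mars2 by -0.00, while Cars2 and Vars2 stayed below 0 at -0.12 and -0.36. At their second probes Cars2 and Vars2 differed by 0.22 and 0.33. Differences within a pair were not tested.

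**Figure D4:**
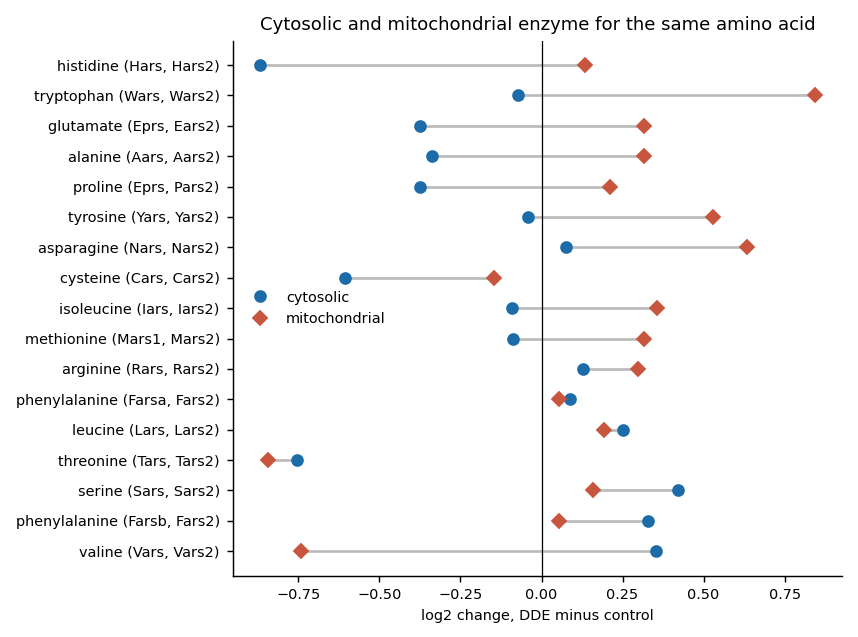
Log2 change after DDE (x axis) of the cytosolic gene (circles) and the mitochondrial gene (diamonds) that charge the same amino acid, 1 row for each of 17 pairs, sorted by the difference. The widest gaps are those of histidine (-0.87 and 0.14) with the mitochondrial gene higher and of valine (0.35 and -0.74) with the cytosolic gene higher.

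Other known targets of ATF4 passed in both directions. Of 38 measured, 4 rose and 1 fell in limma, where 2.58% of all genes were higher and 0.774% lower, and the median log2 change of the 38 was -0.04. Those that rose were Shmt2, a mitochondrial serine hydroxymethyltransferase, Trib3, a pseudokinase that feeds back on ATF4, Ddit3, the stress transcription factor CHOP, and Gpt2, a mitochondrial alanine transaminase. Shmt2 went from 10.70 ± 0.56 to 12.32 ± 0.25 (SD, n = 4; limma adjusted p = 0.0348) and Trib3 from 10.76 ± 0.20 to 12.26 ± 0.61 (adjusted p = 0.046). Trib3 had 2 controls on stained spots and did not pass without them (adjusted p = 0.124). Gpt2 rose by 0.79 (adjusted p = 0.0285), and Ddit3 by 0.70 (adjusted p = 0.0471) from control values of which 2 were above background. With 1 array left out, the call of Shmt2 held only without control 4, those of Trib3 and Gpt2 only without DDE 4, and that of Ddit3 in no case (adjusted p up to 0.108, 0.132, 0.0926 and 0.126). With all arrays kept, the 4 calls were also lost with an intensity trend and robust variance (adjusted p = 0.0508, 0.0642, 0.0659 and 0.117) and with the replicate number as a block (0.124, 0.0981, 0.102 and 0.117). The call of Ddit3 was also lost with the dimmer probes left out (limma adjusted p = 0.0536) and with centring on probes above background (0.0916).

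The gene that fell was Atf5, a transcription factor closely related to ATF4. Its signals were 15.41, 15.85, 15.79 and 15.46 in controls, near the top of the scale at 16, and 13.99, 13.70, 13.95 and 14.06 after DDE (log2 change -1.70, limma adjusted p = 0.0041). Atf5 passed in 19 of its 20 alternatives, missing only with the replicate number as a block (adjusted p = 0.0673), and the values of control 2 and control 3 were on stained spots (-1.51 without them).

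Several other targets fixed by name did not pass. Asns, which makes asparagine and is a standard ATF4 target, had 9.90, 8.13, 8.84 and 8.44 in controls and 8.33, 7.91, 8.03 and 7.86 after DDE, with overlapping groups (difference -0.80, limma adjusted p = 0.386). Chac1, which degrades glutathione, differed by -0.89. Psat1 and Phgdh of serine synthesis differed by -0.91 and -0.55, each with control 4 on a stained spot, and by -0.46 and -0.02 without it. Psat1 was above background in 3 controls and 1 DDE liver, and its second probe, at background in all 8, differed by -0.21. The second probe of Phgdh differed by 0.36, with DDE 4 on a stained spot. Mthfd2, of mitochondrial folate metabolism, read 12.58 on control 2 on a stained spot and was above background in 3 of the 8 livers. Atf4 itself had 13.66 ± 0.31 in controls and 13.64 ± 0.25 after DDE, a difference of -0.02 (95% interval -0.47 to 0.42).

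Among 15 genes of eIF2 and its control, 1 rose and 0 fell, where 2.58% of all genes were higher and 0.774% lower. The 1 that rose was Eif2ak1, the heme-regulated eIF2 kinase, at 8.30 ± 0.17 in controls and 9.03 ± 0.098 after DDE (SD, n = 4; change 0.72, limma adjusted p = 0.0184). The groups did not overlap, and the call was lost without control 2, DDE 1 or DDE 3 (adjusted p up to 0.0574). It was also lost with an intensity trend and robust variance (adjusted p = 0.0653) and with the replicate block (0.0976). Eif2ak4, the kinase GCN2 that senses uncharged tRNA, differed by -0.15 (95% interval -0.68 to 0.39). Eif2ak3, the endoplasmic reticulum kinase PERK, differed by -1.61, and by 0.13 without the stained value of control 2 (limma adjusted p = 0.637 and 0.819). Ppp1r15a, the phosphatase subunit that reverses eIF2 phosphorylation, was counted with the ATF4 targets and differed by 0.07.

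Of 13 genes that edit, convert or assist charged tRNA, 0 passed in limma (3.35% of all genes). By the unadjusted p 1 was higher and 0 were lower (11.4% and 4.57% of all genes). Gatb had the smallest p and is a subunit of the amidotransferase that makes glutaminyl-tRNA in mitochondria, which have no glutamine enzyme of their own. It read 9.47, 8.76, 8.82 and 8.46 in controls and 9.79, 9.27, 9.95 and 11.98 after DDE, with DDE 2 below control 1 (limma adjusted p = 0.328), and its second probe differed by 0.23. Tarsl2, a second cytosolic threonine enzyme that the symbol rule does not reach, differed by -0.45, and by 0.24 without the stained value of control 2.

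Genes that use the charged tRNA are given beside the 3.35% of all genes that passed. In cytosolic elongation 1 of 9 rose and 0 fell, the 1 being Eif5a, which helps the ribosome through difficult peptide bonds (12.12 ± 0.38 to 13.22 ± 0.079, SD, n = 4, limma adjusted p = 0.031). In mitochondrial translation factors and tRNA modification 1 of 17 rose and 0 fell, Tsfm, an elongation factor, by 0.82 (adjusted p = 0.0408), while its partner Tufm differed by 0.62 and did not pass (adjusted p = 0.443). Among 82 mitochondrial ribosomal protein genes 1 rose, Mrpl30, by 1.04 (adjusted p = 0.0252), and 0 fell, with a median log2 change of 0.26 and 57 above 0. With 1 array left out, the call of Eif5a held only without control 1 or control 4 and that of Tsfm only without control 4, and that of Mrpl30 was lost without control 2, control 3, DDE 2 or DDE 3 (adjusted p up to 0.0989, 0.12 and 0.0711). With all arrays kept, the 3 calls were also lost with an intensity trend and robust variance (adjusted p = 0.0551, 0.0842 and 0.0513) and with the replicate block (0.108, 0.16 and 0.124). The call of Tsfm was also lost with centring on probes above background (limma adjusted p = 0.0524). The median of the mitochondrial synthetases, 0.25, was close to the ribosomal median of 0.26. Control 4 was again the lowest array of the ribosomal set, at -0.59 against -0.18 to 0.23 on the others.

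**Figure D5:**
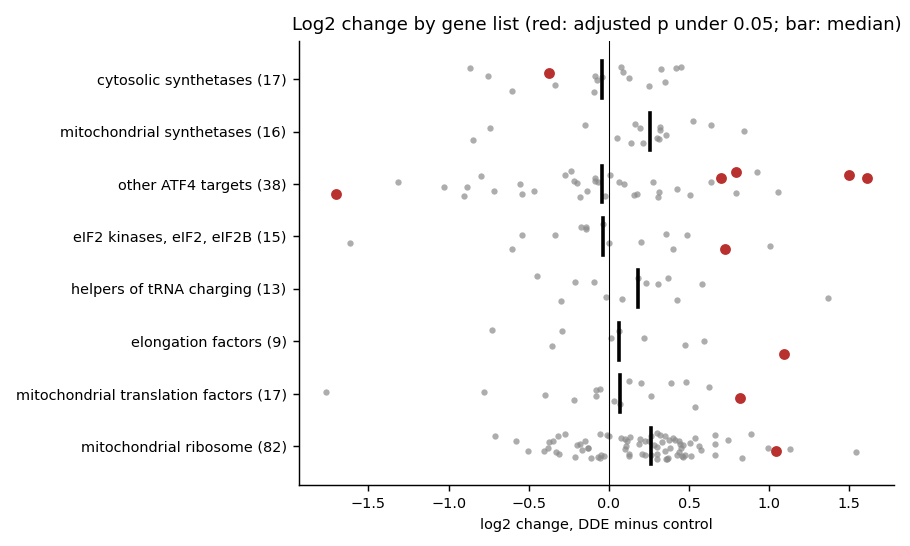
Log2 change after DDE (x axis) of every measured gene in the 2 synthetase sets and 6 related lists, with the number of genes in brackets; red points passed the limma test and black bars are medians. The mitochondrial synthetases and the mitochondrial ribosome have medians of 0.25 and 0.26, and the cytosolic synthetases and the other ATF4 targets both have -0.04.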

How the data were processed

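The authors deposited 1 table of normalized log2 signals for 42957 probes on 8 arrays, 1 per mouse, per the labels made from Cy3-labelled cRNA of total liver RNA. For the scanner, the background correction and the normalization method, nothing is stated in the labels. Sorted values of the arrays differed by a median of 0.01, and medians were 7.46 to 7.47. The supplied annotation named 33009 probes. Values were used as deposited, and each gene was taken at the probe with the highest mean over the 8 arrays, of 46 probes for the 37 members (9 had several).

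All probes were fitted with limma 3.58.1 in R 4.3.3 (lmFit, eBayes), DDE against control, without covariates, with two-sided p-values adjusted over all probes. The procedure was tested on simulated data. Background was the 0.95 quantile of 1634 receptor probes. Feature numbers were laid out as 85 columns, a layout taken from the values, and spots count as stained where deviations in the surrounding window (7 rows, 5 columns) had a median beyond 0.3. All members were named, and in related lists the 6 largest changes past the threshold, or the smallest p, plus genes fixed by name. Members, lists and tests were chosen with earlier results of these data known. Alternatives are given in the closing section. Probe sequences were not used here.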

Additional observations from a re-analysis of the deposited data

Results flagged for a closer look

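Within each group of 4 livers, the gap of the highest or lowest value to the next was set against the range of the group, for all 46 probes of the members. Of the 92 groups, 8 had a value standing apart from the other 3, where chance gives about 1 in 20, and 4 of the 8 values were on stained spots. On stained spots, DDE 4 stood high at 9.74 for the brightest probe of Wars2 (others 8.62 to 8.67), at 8.59 for Mars2 (others 7.25 to 7.42) and at 12.17 for the second probe of Iars2 (others 7.32 to 7.81), and control 4 at 11.08 for the second probe of Wars2 (others 7.27 to 7.35). On spots not stained, DDE 4 stood low at 10.67 for Aars (others 12.03 to 12.15) and at 8.96 for Hars2 (others 9.58 to 9.65). Control 1 stood high at 8.48 for the second probe of Aars (others 7.15 to 7.31), and DDE 3 low at 8.64 for the second probe of Tars2 (others 9.48 to 9.58).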

How the results depend on the processing

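All probes gave 1289 calls (78.0% higher), against 511 with an intensity trend and robust variance, 2140 with array weights, 9 with the replicate number as a block, 775 when a gene's probes were averaged, 766 with 1 probe per gene in the fit and 332 to 1596 when 1 array was left out. Without control 4 they numbered 1193 (64.1% higher), without DDE 2 332 and without DDE 4 1596. Centring on probes above background gave 1500 (55.8% higher) and a mitochondrial median of 0.13, against 0.25. The replicate block, trend, centring on probes above background, 1 probe per gene, a fold change of at least 1.5, dimmer probes left out (where Eprs was not tested) and leaving out both control 4 and DDE 4 each gave 0 cytosolic calls against 1, and leaving out any 1 array gave 0. The mitochondrial count was 0 except 1 without control 4 and DDE 4, and 0 with any 1 array left out. With 1 array left out the cytosolic median ran from -0.045 to 0.07 and the mitochondrial from 0.19 to 0.31. Same-numbered control and DDE arrays deviated together with correlations of 0.083, 0.022, 0.039 and -0.0079. The share of stained spots rose with the replicate number in both groups, from 1.16% to 9.50% in controls and from 0.521% to 7.59% after DDE. The median deviation of probes above background fell with it, from -0.019 to -0.34 in controls and from 0.0825 to -0.18 after DDE. What the replicate numbers stand for was not tested.

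Over the settings that keep every array or leave out a pair, 420 of 441 values of the members kept their direction and side of the threshold. In these settings 7 genes turned direction. With 1 array left out, 274 of 296 values kept both and 11 genes turned. The trend, the replicate block, 1 probe per gene and the fold threshold leave every log2 change as it was, so they could turn no direction. Leaving out the dimmer probes could turn none either, as it keeps the change of each gene that remains. Quantile normalization and centring at the 75th percentile changed little, with mitochondrial medians of 0.250 and 0.249 against 0.254. As 36 of the 37 members did not pass in the main fit, the side of the threshold had little room to change. Reversed values were Fars2 -4.1e-05 and Atf4 0.033 with array weights; Mars2 -0.0017, Tars2 0.21, Eif2ak3 0.13 and Tarsl2 0.24 without stained spots; Aimp2 -0.057, Cars2 0.047, Fars2 -0.19, Farsa -0.023, Mars2 -0.03, Tars2 0.28, Atf4 0.13 and Phgdh 0.08 without control 4 and DDE 4. With centring on probes above background they were Aimp2 -0.019, Fars2 -0.072, Farsa -0.037, Nars -0.049 and Ppp1r15a -0.059, and with averaged probes Cars2 0.035 and Atf4 0.0275. With 1 array left out, values ran across 0 for Aars (-0.47 to 0.021), Aimp2 (-0.10 to 0.20), Cars2 (-0.29 to 0.0525), Fars2 (-0.23 to 0.27), Farsa (-0.035 to 0.22), Mars1 (-0.27 to 0.04), Mars2 (-0.0017 to 0.44), Sars2 (-0.0475 to 0.32), Tars2 (-1.37 to 0.21), Wars (-0.25 to 0.07), Yars (-0.12 to 0.019), Atf4 (-0.12 to 0.10), Eif2ak3 (-2.26 to 0.13), Eif2ak4 (-0.28 to 0.034), Ppp1r15a (-0.063 to 0.23), Tarsl2 (-0.77 to 0.24) and the hepatocyte marker Ttr (-0.26 to 0.0092). The causes were not tested. Signal near background limits Eprs, Rars, Yars, Lars2, Mars2 and Nars2.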
